A study of Homo sapiens with 8 samples.

Results

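ZR75-1 and SKBR3, a pair of human breast cancer cell lines, were each transfected with a plasmid carrying HSD17B14 or with the vector lacking the insert, and the quantity examined here is how much the plasmid's effect differed between them. For each probe set of the array, the log2 change from vector to HSD17B14 in the SKBR3-labelled cells was subtracted from the same change in ZR75-1 cells. A difference below 0 therefore means that the effect was lower in ZR75-1, either because a transcript rose less there or because it was reduced there. All 8 arrays entered, in 4 groups of 2: ZR75-1 with HSD17B14, ZR75-1 with vector, SKBR3 with HSD17B14 and SKBR3 with vector. The labels call ZR75-1 estrogen receptor positive and SKBR3 estrogen receptor negative. All 4 groups were kept in phenol-red free Optimem-I with 4% foetal bovine serum, received FuGene-6 and DNA 24 h after seeding, and were harvested 48 h later. Each comparison is thus with cells that were also given plasmid DNA. The transfection was transient, and the arrays hybridized labelled RNA prepared from 5 ug of total RNA.

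Of 8746 probe sets that are no controls, 6251 were tested, which covered 5552 named genes. Sizes are given for the 3556 probe sets with a signal above 17.6 on every array, the highest of the arrays' own 40th percentiles. At that limit, HLA-DRB1 lay just inside with a lowest signal of 17.7 and a difference of 1.08, and VAMP4 just outside with a lowest signal of 17.6 and a difference of 0.75. Among the probe sets called below, EPHX1 was the nearest inside, at 19.2, and MUC1 the nearest outside, at 9.5. The labels do not say whether duplicate arrays came from separate cultures, so every p-value reflects the spread of duplicate arrays alone, which may be technical. RNA was taken from whole cultures, so a different share of transfected cells and a different amount of RNA per cell cannot be told apart.

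HSD17B14 is an oxidoreductase of the hydroxysteroid dehydrogenase family that can act on estradiol and other substrates. Type I interferon is secreted by cells that sense foreign nucleic acid, and through its receptor it switches on effectors such as the MX GTPases and the OAS enzymes. These effectors block viral replication, and tumour cell lines differ in how strongly they express them without treatment.

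HSD17B14 itself gave signals of 17.8 and 2.1 on the ZR75-1 vector arrays, 107.5 and 135.3 on the ZR75-1 HSD17B14 arrays, 2.0 and 4.2 on the SKBR3-labelled vector arrays and 650.7 and 743.6 on the SKBR3-labelled HSD17B14 arrays. The plasmid groups did not overlap with the vector groups in either line, and the signal with plasmid was higher in the SKBR3-labelled cells. With vector signals at or near background, the difference between lines has no size and did not pass (limma adjusted p = 0.21). Its probe set can take up related transcripts, as its design suffix states.

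The line labels were checked against marker genes. ERBB2, the receptor whose gene is amplified in SKBR3, gave 25.9 to 46.8 on the SKBR3-labelled arrays and 95.9 to 226 on the ZR75-1 arrays, which goes against the SKBR3 label. Of 5 tested genes listed for the same amplified region, 3 were higher in ZR75-1 with vector. MED1, another of them, was higher on the SKBR3-labelled arrays, at 181.6 to 188.1 against 57.3 to 87.8. Vimentin (VIM), a mesenchymal filament protein, lay between 3646 and 5326 on the SKBR3-labelled arrays and between 0.4 and 25.7 on the ZR75-1 arrays. E-cadherin (CDH1) was at 26.8 to 58.1 and at 1075 to 1508. The mesenchymal markers did not all go with VIM. Of 7 basal and mesenchymal genes tested, 3 (TWIST1, COL1A1 and COL1A2) were higher in ZR75-1 with vector, with signals of at most 50.4. The estrogen receptor ESR1 was at 14.9 to 24.6 on the SKBR3-labelled arrays and at 194.5 to 341.6 on the ZR75-1 arrays, in the direction of the labels. The arrays are called SKBR3-labelled below for this reason. Leukocyte and liver markers were at or near background on every array, with PTPRC at 0.9 to 16.2 and ALB at 0.5 to 14.1.

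The difference passed limma's test, at a Benjamini-Hochberg adjusted p under 0.05, for 39 probe sets, which is 0.624% of those tested. The effect was lower in ZR75-1 for 35 of them (0.56%) and higher for 4 (0.064%). At an unadjusted p under 0.05 the counts were 454 lower (7.26%) and 361 higher (5.78%). The median difference over all probe sets tested was -0.05, and 0.02 or 0.08 after quantile normalization or median centring. Among probe sets above the signal limit, the middle 90% of differences ran from -0.98 to 0.71.

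The 35 lower calls fall into groups that do not overlap. In 23 the transcript rose in the SKBR3-labelled cells, and of these 20 did not pass in ZR75-1 and 3 (UBE2L6, IFITM1 and ISG20) rose in both. In 10 the transcript fell in ZR75-1 and did not pass in the SKBR3-labelled cells. In the remaining 2, APOD and EEF2, neither line's own effect passed. No probe set passed in opposite directions in the lines, although 12 passed in both. Over all probe sets tested, 59 (0.944%) rose and 3 (0.048%) fell in the SKBR3-labelled cells, and 46 (0.736%) rose and 49 (0.784%) fell in ZR75-1. Of the 59 that rose in the SKBR3-labelled cells, 23 were called for the difference. Of the 49 that fell in ZR75-1, 10 were.

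**Figure D1:**
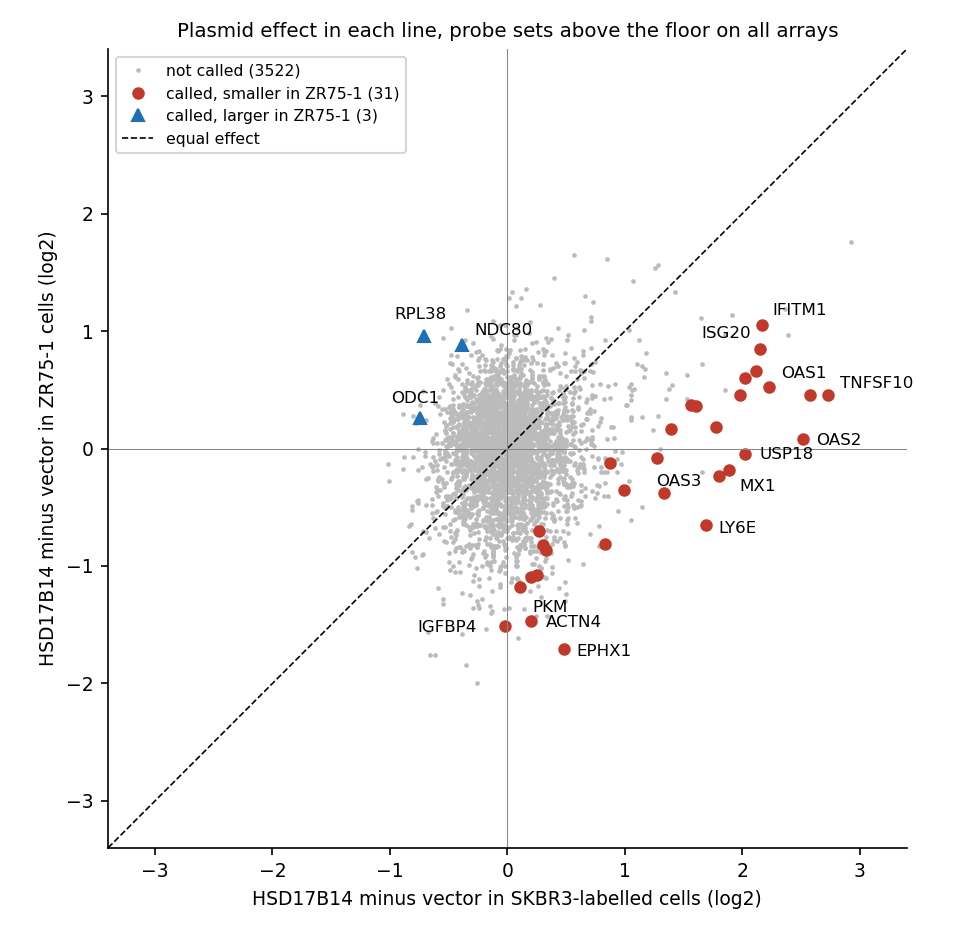
Log2 change from vector to HSD17B14 in SKBR3-labelled cells (x axis) against the same change in ZR75-1 cells (y axis) for the 3556 probe sets above the signal limit, 1 point each, with the dashed line marking equal effects. The 31 red points called lower in ZR75-1 form an arm along the x axis and another below 0 on the y axis, and the 3 blue triangles called higher lie at the upper left.

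Across the probe sets above the signal limit, the effects in the lines had a Pearson correlation of 0.16, a description over genes that share the same arrays and are not independent. Array measures of RNA integrity differed between the groups. The actin 3' to 5' signal ratio was 2.03 and 2.02 on the ZR75-1 vector arrays and 2.83 and 2.66 with HSD17B14. On the SKBR3-labelled arrays it was 3.602 and 2.996 with vector and 2.28 and 3.09 with HSD17B14. It was thus higher with plasmid in ZR75-1, and its groups overlapped in the SKBR3-labelled cells. The GAPDH ratio went the other way in ZR75-1, with 1.084 and 1.039 for vector and 0.896 and 0.883 for HSD17B14, and also overlapped in the SKBR3-labelled cells, with 0.912 and 0.868 for vector and 0.812 and 0.886 for HSD17B14. With the actin ratio as a covariate 0 probe sets passed, 241 had an unadjusted p under 0.05 and the smallest adjusted p was 0.183.

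Interferon-induced effectors held more calls than any other gene list. Of 39 effectors tested, 15 were called lower in ZR75-1 and 0 higher, against 0.56% and 0.064% of all probe sets. The difference was below 0 for all 39, where 52.7% of all probe sets lay below 0, and its median was -1.12. The effectors' median effect was 1.43 in the SKBR3-labelled cells and 0.46 in ZR75-1. By line, 33 of the 39 rose in the SKBR3-labelled cells and 9 rose in ZR75-1. In 35 of the 39 the array differences of ZR75-1 all lay below those of the SKBR3-labelled cells, against 15.7% of all probe sets. The median difference was -0.97 with the actin ratio as a covariate.

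MX1, a dynamin-like GTPase that traps viral nucleocapsids, showed the pattern most tightly. Its signals were 1759 and 1722 with vector and 1586 and 1487 with HSD17B14 in ZR75-1, and 498.1 and 454.9 with vector and 1767 and 1751 with HSD17B14 in the SKBR3-labelled cells. The SKBR3-labelled cells rose 3.70-fold, to signals near those of ZR75-1 with vector, and their vector arrays lay far below all others. The ZR75-1 groups did not overlap either, with the HSD17B14 arrays a little lower. The difference was -2.07 ± 0.18 (limma's SE, here and below; adjusted p = 0.00106), from effects of -0.18 in ZR75-1 and 1.89 in the SKBR3-labelled cells. With vector, MX1 was 1.87 log2 units higher in ZR75-1, and with HSD17B14 the gap was -0.20.

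The OAS enzymes make the oligoadenylate that activates RNase L. OAS1 gave 506.8 and 561.7 with vector and 762.8 and 704.6 with HSD17B14 in ZR75-1, and 81.5 and 62.2 with vector and 434.3 and 418.6 with HSD17B14 in the SKBR3-labelled cells. OAS2 gave 479.2 and 426.8, then 459.7 and 496.8 in ZR75-1, and 34.6 and 62.9, then 299.2 and 239.7 in the SKBR3-labelled cells. OAS3 gave 631.3 and 609.6, then 553.2 and 508 in ZR75-1, and 118.4 and 143.8, then 459 and 452.1 in the SKBR3-labelled cells. In all of these the SKBR3-labelled vector arrays were lowest and did not overlap with any other group. The differences were -2.12 ± 0.23 for OAS1 (adjusted p = 0.00142), -2.44 ± 0.34 for OAS2 (0.0108) and -2.03 ± 0.21 for OAS3 (0.00111). OASL, a related protein without synthase activity, differed by -1.52 ± 0.23 (0.0167).

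LY6E, a lipid-anchored surface protein, gave 364.9 and 406.8 with vector and 243.6 and 247.4 with HSD17B14 in ZR75-1, and 54.7 and 65 with vector and 206.3 and 180.1 with HSD17B14 in the SKBR3-labelled cells. Its ZR75-1 effect of -0.65 did not pass (adjusted p = 0.0786), while the difference of -2.34 ± 0.24 did (0.00111). USP18, which removes the ubiquitin-like modifier ISG15, gave 546.2 and 569.2 with vector and 582.6 and 497.5 with HSD17B14 in ZR75-1, and 67 and 47.3 with vector and 246.8 and 211.8 with HSD17B14 in the SKBR3-labelled cells. The ZR75-1 groups of USP18 overlapped, and the difference was -2.07 ± 0.27 (adjusted p = 0.00601). UBE2L6, the conjugating enzyme for ISG15, rose in both lines, by 0.66 in ZR75-1 and 2.12 in the SKBR3-labelled cells, a difference of -1.46 ± 0.18 (0.00518).

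IFITM1, which restricts viral entry, and the exonuclease ISG20 were the other calls that rose in both lines. IFITM1 gave 460.7 and 479 with vector and 949.8 and 998 with HSD17B14 in ZR75-1, and 668.6 and 717 with vector and 2956 and 3296 with HSD17B14 in the SKBR3-labelled cells. It rose 2.07-fold and 4.51-fold, a difference of -1.12 ± 0.19 (adjusted p = 0.025), and its SKBR3-labelled HSD17B14 arrays were the highest of all. ISG20 gave 407.4 and 461.4, then 810.8 and 751.1 in ZR75-1, and 66.6 and 87.9, then 338.3 and 340.1 in the SKBR3-labelled cells, a difference of -1.30 ± 0.23 (0.0373). BST2, also called tetherin, differed by -1.72 ± 0.30 (0.0319) and the ubiquitin ligase TRIM21 by -1.70 ± 0.31 (0.0375). IFI44L differed by -1.60 ± 0.24 (0.0167), the secreted glycoprotein LGALS3BP by -1.35 ± 0.23 (0.0265) and the nuclear body protein SP110 by -1.22 ± 0.18 (0.0167). The other SP110 probe set differed by -1.65 and did not pass (0.0651).

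**Figure D2:**
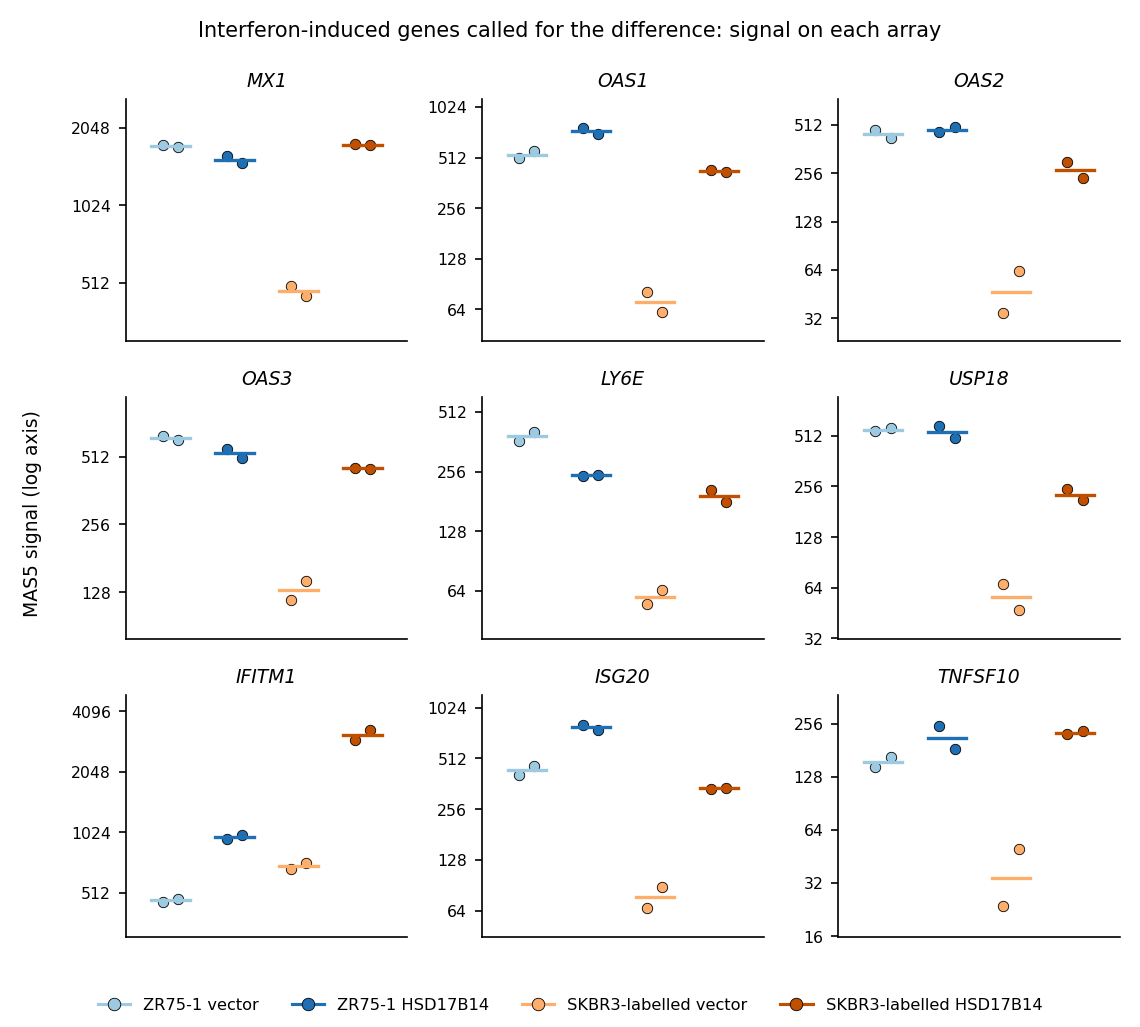
MAS5 signal on each array (log axis, 1 point per array, bar at the mean of the log2 values) for 9 called genes, in the groups ZR75-1 vector, ZR75-1 HSD17B14, SKBR3-labelled vector and SKBR3-labelled HSD17B14. In each panel but IFITM1 the SKBR3-labelled vector arrays are lowest, and in MX1 and TNFSF10 the SKBR3-labelled HSD17B14 arrays reach the ZR75-1 range or lie above it.

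Of the 39 effectors, 24 were not called for the difference. IFI27 rose in both lines, by 1.33 in ZR75-1 and 1.43 in the SKBR3-labelled cells, with a difference of -0.10 (adjusted p = 0.898). IFITM3 rose by 1.11 and 1.65, with a difference of -0.54 that did not pass (0.336). The modifier ISG15 had effects of 0.19 and 0.22, of which neither passed, and a difference of -0.02. LAMP3, under the signal limit on some arrays, did not pass (0.239).

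Over the 39 effectors, the median gap between the lines (ZR75-1 minus SKBR3-labelled) was 0.73 log2 units with vector and -0.04 with HSD17B14. The called effectors depended on single arrays for their number. It was 4 without the first and 7 without the second SKBR3-labelled HSD17B14 array, 7 and 6 without the first and second ZR75-1 HSD17B14 array, and 8 without the first ZR75-1 vector array. The list's median stayed between -1.20 and -1.0 in all 8 fits that left out 1 array. MX1, OAS1, OAS3 and LY6E, together with IGFBP2 described below, passed in each of those 8 fits.

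The promoters of the called genes were searched for the core of the interferon-stimulated response element (GAAA, then 2 bases of any kind, then GAAA) on both strands of the 250 bases before each RefSeq transcript start on GRCh38.p14. Windows were found for 18 of the called genes that rose in the SKBR3-labelled cells, and 8 of these held a match (44.4%), against 178 of 4614 tested genes (3.86%) and 1061 of 35116 windows of this length (3.02%). The 8 were MX1, OAS3, IFI44L, IFITM1, LGALS3BP, BST2, ISG20 and TNFSF10, of which TNFSF10 is not on the effector list. No match lay in the windows of the 9 called genes that fell in ZR75-1 or the 4 called higher. At a share of 3.86%, groups this small would be likely to hold none, so their lack of matches shows no contrast. A match is a description of the letters and not a shown binding site. The 5 windows below show how the matches lie, with the match in capitals, written 5' to 3' along the gene's strand, for OAS3 (chr12:112938224-112938473, forward), IFI44L (chr1:78620198-78620447, forward), IFITM1 (chr11:313790-314039, forward), ISG20 (chr15:88638766-88639015, forward) and BST2 (chr19:17405631-17405880, reverse).
OAS3: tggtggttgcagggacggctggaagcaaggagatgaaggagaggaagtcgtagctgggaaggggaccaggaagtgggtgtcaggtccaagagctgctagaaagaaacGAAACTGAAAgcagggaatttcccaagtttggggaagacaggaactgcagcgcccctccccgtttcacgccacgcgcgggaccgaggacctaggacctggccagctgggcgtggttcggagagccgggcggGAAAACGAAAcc
IFI44L: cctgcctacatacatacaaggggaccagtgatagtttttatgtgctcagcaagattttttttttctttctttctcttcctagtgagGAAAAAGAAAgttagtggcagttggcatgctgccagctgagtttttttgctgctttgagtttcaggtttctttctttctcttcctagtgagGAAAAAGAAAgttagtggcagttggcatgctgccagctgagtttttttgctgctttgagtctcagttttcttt
IFITM1: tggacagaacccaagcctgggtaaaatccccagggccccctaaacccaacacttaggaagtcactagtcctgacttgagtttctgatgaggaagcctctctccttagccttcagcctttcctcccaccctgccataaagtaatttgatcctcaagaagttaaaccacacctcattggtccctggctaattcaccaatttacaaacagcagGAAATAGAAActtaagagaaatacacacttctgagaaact
ISG20: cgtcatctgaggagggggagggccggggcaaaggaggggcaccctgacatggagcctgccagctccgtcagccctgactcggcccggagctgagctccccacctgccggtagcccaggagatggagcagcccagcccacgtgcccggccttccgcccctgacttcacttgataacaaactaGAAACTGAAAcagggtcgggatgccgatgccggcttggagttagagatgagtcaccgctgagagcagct
BST2: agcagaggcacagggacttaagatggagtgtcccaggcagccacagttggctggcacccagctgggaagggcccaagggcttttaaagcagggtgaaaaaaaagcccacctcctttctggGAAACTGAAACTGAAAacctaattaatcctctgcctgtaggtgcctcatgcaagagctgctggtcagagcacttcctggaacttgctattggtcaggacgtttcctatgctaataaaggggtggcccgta
The matches of OAS3 start 143 and 12 bases before the transcript start, and those of IFI44L 164 and 73 bases before it. IFITM1 and ISG20 each hold a single match, 40 and 69 bases before the start. The BST2 matches, 130 and 124 bases before the start, overlap.

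Sensors and signalling proteins of the interferon pathway held few calls. Of 20 tested, 14 were above the signal limit on every array. Among the 20, 2 were called lower in ZR75-1 (RIGI and IRF7), against 0.56% of all probe sets, and 17 were below 0, against 52.7%. The median difference was -0.82, with medians of -0.05 in ZR75-1 and 0.62 in the SKBR3-labelled cells. With log2 of the signal plus 32 the median difference was -0.38. RIGI, the cytosolic sensor of viral RNA, gave 237.7 and 243.3 with vector and 331.1 and 289.2 with HSD17B14 in ZR75-1, and 177.8 and 227.6 with vector and 615.7 and 612.1 with HSD17B14 in the SKBR3-labelled cells. Here the SKBR3-labelled HSD17B14 arrays were the highest, and the difference was -1.25 ± 0.22 (adjusted p = 0.0373). IRF7, a transcription factor of the interferon response, gave 256 and 230.4, then 195 and 186.6 in ZR75-1, and 334.6 and 229.5, then 546.9 and 550.1 in the SKBR3-labelled cells. The vector groups overlapped, and the difference was -1.33 ± 0.26 (0.0444). The interferon beta gene IFNB1 was under the signal limit on 1 array, at 119.4 and 130.7, then 173.8 and 141.7 in ZR75-1, and at 23.5 and 1.0, then 21.9 and 19 in the SKBR3-labelled cells. Its difference did not pass (0.651).

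Among 14 genes of MHC class I antigen presentation and the immunoproteasome, 2 were called lower in ZR75-1, against 0.56% of all probe sets. Of the 14, 13 were below 0, against 52.7% of all probe sets. Their median difference was -0.82, which was -0.37 with the actin ratio as a covariate. It was -0.33 without the first SKBR3-labelled vector array, -0.31 with values raised to the signal limit and -0.25 with log2 of the signal plus 32. HLA-C, a class I heavy chain, gave 1520 and 1437 with vector and 1858 and 1960 with HSD17B14 in ZR75-1, and 594.5 and 735.1 with vector and 1850 and 2068 with HSD17B14 in the SKBR3-labelled cells. Its SKBR3-labelled vector arrays were lowest, its ZR75-1 vector arrays came next, and the plasmid arrays of both lines overlapped. The difference was -1.20 ± 0.21 (adjusted p = 0.0335), from a probe set that can take up other class I transcripts. PSMB9, an immunoproteasome subunit, differed by -1.42 ± 0.26 (0.0413). Its partner PSMB8 (-1.12, 0.0609) and the loading protein TAPBP (-1.61, 0.0687) did not pass, and the light chain B2M differed by 0.16.

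The death ligand TNFSF10 was the member of the apoptosis list that passed, of 19 tested with a median difference of -0.17, which ran from -0.38 without the second SKBR3-labelled HSD17B14 array to -0.08 without the second SKBR3-labelled vector array. It gave 145.5 and 165 with vector and 247.7 and 183.7 with HSD17B14 in ZR75-1, and 23.6 and 49.9 with vector and 222.7 and 231.7 with HSD17B14 in the SKBR3-labelled cells. The SKBR3-labelled cells rose 6.62-fold into the ZR75-1 range, and the difference was -2.27 ± 0.43 (adjusted p = 0.0434). SDC4, a heparan sulfate proteoglycan, was the other call above the signal limit that rose in the SKBR3-labelled cells and lies on none of the interferon lists, at -0.99 ± 0.19 (0.0468).

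Of 26 inflammatory targets of NF-kB, 21 had a difference below 0, against 52.7% of all probe sets. Their median was -0.71, but 8 of the 26 were above the signal limit. The median was -1.17 without the first ZR75-1 vector array and -0.44 with log2 of the signal plus 32. The call was S100A9, a calcium-binding alarmin subunit (adjusted p = 0.0108), which gave 1101 and 1202 with vector and 1336 and 1441 with HSD17B14 in ZR75-1, and 7.4 and 11.1 with vector and 54.2 and 43.1 with HSD17B14 in the SKBR3-labelled cells. With vector the SKBR3-labelled signals were under the limit, so no size is given. The chemokine CXCL10 rose in both lines, by 1.76 in ZR75-1 and 2.93 in the SKBR3-labelled cells, and the difference of -1.18 did not pass (0.148). The NF-kB inhibitor NFKBIA differed by -1.11 and did not pass (0.0609).

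IGFBP2, a binding protein for insulin-like growth factors, passed with an adjusted p of 0.00111. Its signals were 839.1 and 598.3 with vector and 263.4 and 313.1 with HSD17B14 in ZR75-1, and 1.4 and 0.7 with vector and 14.8 and 21.4 with HSD17B14 in the SKBR3-labelled cells. The ZR75-1 signals were lower with HSD17B14 (adjusted p = 0.0843 within that line), and the SKBR3-labelled vector signals lay far under the limit, so no size is given. With values raised to the limit the IGFBP2 call was lost (0.135), and so were those of S100A9 (0.0811), MUC1 (0.0811) and APOD (0.0699). APOD, a secreted lipocalin, had a like layout (0.0373), with 295.9 and 345.2, then 106.8 and 91.7 in ZR75-1, and 4.4 and 10.3, then 18 and 19.7 in the SKBR3-labelled cells.

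The other arm of lower calls held genes that fell in ZR75-1 while no change passed in the SKBR3-labelled cells. The 9 above the signal limit differed by -2.19 to -0.96, with ZR75-1 effects of -1.71 to -0.70 and SKBR3-labelled effects of -0.02 to 0.48. EPHX1, a microsomal epoxide hydrolase, gave 605 and 613.3 with vector and 218.7 and 158.5 with HSD17B14 in ZR75-1, and 19.2 and 24 with vector and 32.8 and 27.5 with HSD17B14 in the SKBR3-labelled cells. It fell 3.27-fold in ZR75-1 and differed by -2.19 ± 0.34 (adjusted p = 0.0167), though the SKBR3-labelled signals lay near the limit. IGFBP4, an estrogen-induced binding protein for insulin-like growth factors, gave 247.4 and 234.7 with vector and 95.4 and 75.5 with HSD17B14 in ZR75-1, and 817.8 and 668.1 with vector and 782.4 and 680.3 with HSD17B14 in the SKBR3-labelled cells. The SKBR3-labelled groups overlapped, the ZR75-1 groups did not, and the difference was -1.49 ± 0.24 (0.0204).

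ACTN4, an actin crosslinker, gave 451.9 and 414.2 with vector and 172.7 and 141.7 with HSD17B14 in ZR75-1, and 296.5 and 178.4 with vector and 275.9 and 252.2 with HSD17B14 in the SKBR3-labelled cells. The wide spread of its SKBR3-labelled vector arrays enclosed both plasmid arrays, and the difference was -1.67 ± 0.31 (adjusted p = 0.0413). Of the glycolytic enzymes, PKM fell 2.26-fold and TPI1 1.62-fold in ZR75-1, with differences of -1.29 ± 0.24 (0.0375) and -0.96 ± 0.18 (0.0441). They were the calls among 26 glycolysis and hypoxia genes, whose median difference was -0.13. That median was 0.00 after median centring, -0.39 with the actin covariate and -0.23 to 0.01 with 1 array left out, the last without the first ZR75-1 vector array. ENO2 (-1.25) and LDHA (0.61) did not pass and lay on either side of 0.

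The tetraspanin CD81 differed by -1.29 ± 0.24 (adjusted p = 0.0375) and the G protein subunit GNB2 by -1.33 ± 0.22 (0.0223), each from a fall in ZR75-1. The mitochondrial ribosomal protein MRPL49 differed by -1.19 ± 0.21 (0.0373) and the calcium-binding S100A11 by -1.12 ± 0.21 (0.0444). MUC1, a membrane mucin, had an adjusted p of 0.0176 and gave 1348 and 1034, then 567.1 and 413.3 in ZR75-1, and 9.5 and 15.1, then 26.7 and 24.4 in the SKBR3-labelled cells. EEF2, the elongation factor that moves the ribosome along, differed by -1.65 ± 0.32 (0.0468), but its other probe set differed by -0.37 and did not pass (0.533). The 10 calls that fell in ZR75-1 were each lost with some array left out. None of them was called without the second ZR75-1 HSD17B14 array or without the first SKBR3-labelled HSD17B14 array, and 1 was called without the first ZR75-1 vector array, 2 without the second, and 1 without the second SKBR3-labelled HSD17B14 array. The count was 5 without the first ZR75-1 HSD17B14 array, and 6 and 4 without the first and second SKBR3-labelled vector array. Of the 23 that rose in the SKBR3-labelled cells, 5 to 19 were called when 1 array was left out, with the fewest without the first SKBR3-labelled HSD17B14 array.

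**Figure D3:**
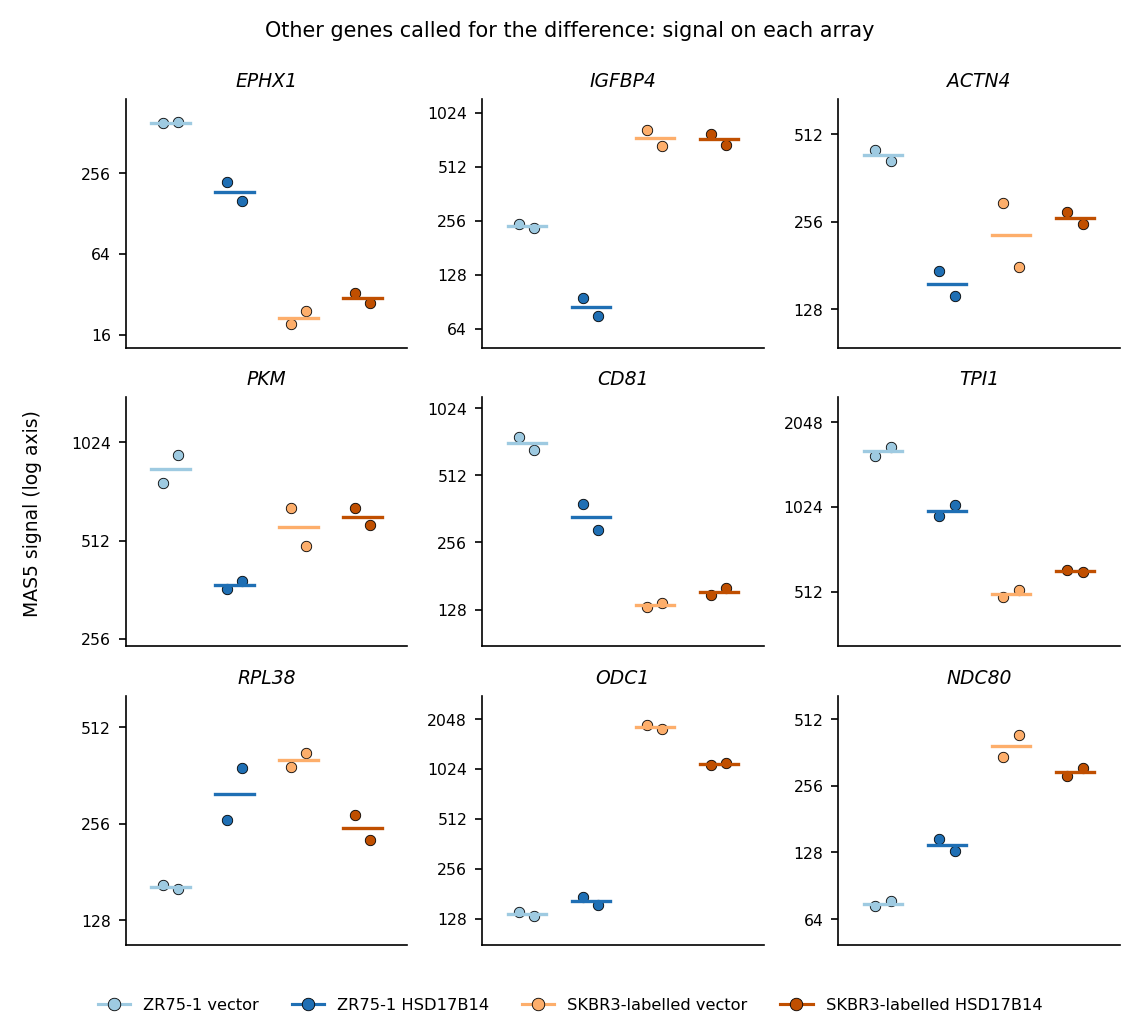
MAS5 signal on each array (log axis, 1 point per array, bar at the mean of the log2 values) for 6 genes called lower and 3 called higher in ZR75-1, in the same 4 groups. EPHX1, IGFBP4, ACTN4, PKM, CD81 and TPI1 are lower with HSD17B14 in ZR75-1, and RPL38, ODC1 and NDC80 are lower with HSD17B14 in the SKBR3-labelled cells.

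In the opposite direction 4 genes were called. RPL38, a protein of the large ribosomal subunit, gave 165 and 160.3 with vector and 263.8 and 381.6 with HSD17B14 in ZR75-1, and 385.8 and 427.1 with vector and 272.3 and 227 with HSD17B14 in the SKBR3-labelled cells. It rose in ZR75-1 by 0.96, its SKBR3-labelled effect of -0.71 did not pass, and the difference was 1.67 ± 0.27 (adjusted p = 0.0204). NDC80, a kinetochore protein, gave 73.2 and 77 with vector and 146.9 and 129.9 with HSD17B14 in ZR75-1, and 346 and 433.8 with vector and 283.3 and 307.5 with HSD17B14 in the SKBR3-labelled cells. Its groups did not overlap within either line, and the difference was 1.27 ± 0.24 (0.0444).

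ODC1, the enzyme that starts polyamine synthesis, gave 139.7 and 133 with vector and 173.3 and 154.5 with HSD17B14 in ZR75-1, and 1874 and 1778 with vector and 1074 and 1118 with HSD17B14 in the SKBR3-labelled cells. It fell 1.67-fold in the SKBR3-labelled cells and differed by 1.00 ± 0.19 (adjusted p = 0.0441). CSRP2, a LIM domain protein of the actin cytoskeleton, gave 0.6 and 1.1, then 16.4 and 13.5 in ZR75-1, and 265.5 and 317.2, then 294.7 and 314.8 in the SKBR3-labelled cells. All ZR75-1 signals of CSRP2 lay under the limit, and its call (0.0108) was lost when values were raised to that limit, where the difference was -0.07 (adjusted p = 0.913). All 4 higher calls were lost without either of the SKBR3-labelled HSD17B14 arrays and without the second SKBR3-labelled vector array, 1 remained without the second ZR75-1 HSD17B14 array or either ZR75-1 vector array, and 2 without the first ZR75-1 HSD17B14 array. The next genes by p-value above the limit, none of which passed, included the transferrin receptor TFRC at 0.92 ± 0.18 (0.0533), the stress factor ATF3 at 1.18 ± 0.24 (0.0609) and the apoptosis inhibitor BIRC2 at 1.06 ± 0.24 (0.088).

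Several lists of housekeeping genes leaned towards ZR75-1 with few calls. Of 46 cytosolic ribosomal protein genes, 45 had a difference above 0, where 47.3% of all probe sets did, with a median of 0.43 and a single call, RPL38. Their median effect was 0.10 in ZR75-1 and -0.33 in the SKBR3-labelled cells, and in 21 of the 46 the array differences of ZR75-1 all lay above the others, against 12.4% of all probe sets. RPL7 (0.72), RPL14 (0.67) and RPL22 (0.60) did not pass. The median depended on scaling: it was 0.13 after quantile normalization, 0.56 after median centring, 0.19 with the actin ratio as a covariate and 0.25 without the first ZR75-1 vector array.

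The 28 genes of the constitutive proteasome had a median difference of 0.39, with 21 above 0, against 47.3% of all probe sets, and 0 calls. At an unadjusted p under 0.05, 9 were higher and 0 lower, where 5.78% of all probe sets were higher and 7.26% lower. Of 50 genes of the respiratory chain and ATP synthase, 39 were above 0 with a median of 0.24 and 0 calls, and 9 were higher and 1 lower at an unadjusted p under 0.05. NDUFA6 of complex I (0.87 ± 0.19, adjusted p = 0.0832) and COX7A2 of complex IV (0.80 ± 0.22, 0.155) came nearest. The proteasome median was 0.25 after quantile normalization. The respiratory median was 0.13 without the first and 0.42 without the second ZR75-1 vector array, and 0.16 and 0.37 after quantile normalization and median centring. Of 38 genes of G2/M and mitosis, 24 were above 0, against 47.3% of all probe sets, and NDC80 was the call. Their median was 0.15 (0.28 after median centring, 0.09 without the second ZR75-1 vector array). The kinase BUB1 differed by 1.04 and CKS2 by 0.88, and neither passed.

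**Figure D4:**
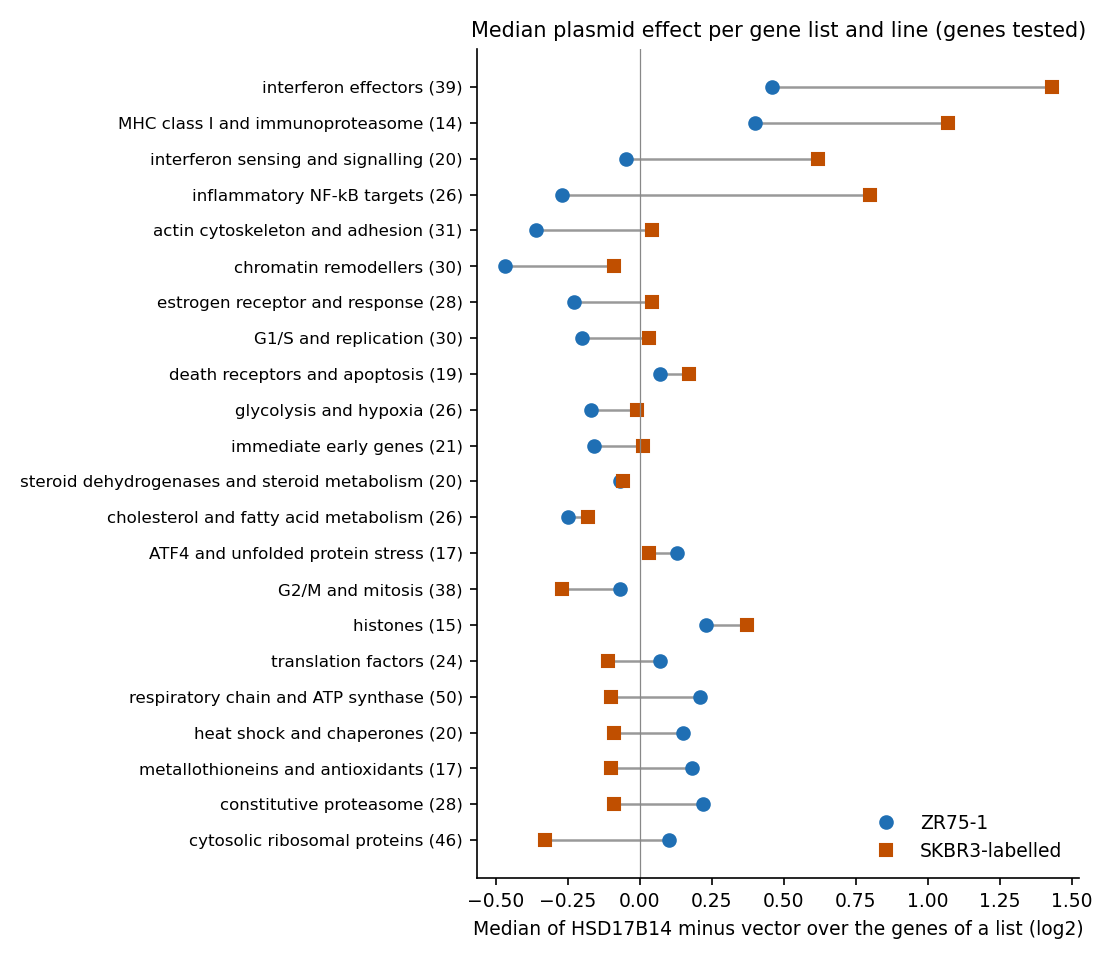
Median log2 change from vector to HSD17B14 over the tested genes of each list (number in brackets), for ZR75-1 (circles) and SKBR3-labelled cells (squares), sorted by the median difference between lines. Interferon effectors have medians of 0.46 and 1.43 and the lowest median of the per-gene differences, and cytosolic ribosomal proteins lie at the other end with 0.10 and -0.33.

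Steroid and estrogen genes were examined because HSD17B14 can act on estradiol. Of 20 genes of steroid metabolism tested, 9 were above the signal limit on every array, and HSD17B14 itself is a member. EPHX1 was the call. The list's median difference of -0.05 turned to 0.12 after quantile normalization and 0.08 after median centring. It lay between -0.21 (without the second SKBR3-labelled vector array) and 0.22 (without the second ZR75-1 vector array) with 1 array left out. In the HSD17B family, HSD17B12, which also elongates fatty acids, differed by 0.65 (adjusted p = 0.179), HSD17B10 by 0.16, HSD17B4 by -0.18 and HSD17B7 by -0.05, and none passed. HSD17B11 was at 0.6 to 7.1 in ZR75-1 and 316.1 to 391.5 in the SKBR3-labelled cells, with an adjusted p of 0.0719. HSD17B1 was at 36.2 to 61 in ZR75-1 and at 1.1 to 2.4 in the SKBR3-labelled cells. HSD17B2, HSD17B3, HSD17B6 and the progesterone receptor PGR were too low to be tested.

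Of 28 genes of the estrogen receptor and its response, 16 were above the signal limit on every array. IGFBP4 was the call, 17 of the 28 were below 0, against 52.7% of all probe sets, and the median difference was -0.30. It was -0.17 after median centring, -0.18 without the first SKBR3-labelled HSD17B14 array and -0.10 without the second SKBR3-labelled vector array. ESR1, under the signal limit on some SKBR3-labelled arrays, did not pass (adjusted p = 0.736), and no size is given. The estrogen-induced TFF1 differed by 0.26 ± 0.19 (0.612). TFF1 gave 1874 and 2114, then 2768 and 2472 in ZR75-1, and 962.4 and 987.9, then 1073 and 1061 in the SKBR3-labelled cells, higher with plasmid in both lines without passing. CA12 (-0.86, 0.088), CTSD (-1.63, 0.142) and CCND1 (-0.76, 0.183) did not pass. ERBB2 differed by -1.22 ± 0.43 and did not pass (0.281).

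In 31 genes of the actin cytoskeleton and adhesion, 23 were below 0, against 52.7% of all probe sets, with a median of -0.50. The calls were ACTN4 and CSRP2, in opposite directions. The median was -0.24 without the second SKBR3-labelled and -0.32 without the first ZR75-1 vector array. LMNA of the nuclear lamina (-0.95, adjusted p = 0.107) and the integrin ITGB4 (-1.40, 0.165) did not pass. In lipid metabolism, 0 of 26 genes were called. At an unadjusted p under 0.05, 2 were higher and 4 lower, against 5.78% and 7.26% of all probe sets. The median was -0.04, with 0.02 after quantile normalization and 0.09 after centring. It was -0.18 without the first SKBR3-labelled and -0.13 without the first ZR75-1 vector array. There UCP2, which fell in ZR75-1 by 1.76, differed by -1.14 (0.0804), and FASN, which fell by 1.54, differed by -1.36 (0.148).

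Bacillus spike-in controls were high on 3 arrays (the second ZR75-1 HSD17B14 array and the second array of both SKBR3-labelled groups). Within the 5 other arrays all 39 calls kept their sign. This was fixed in advance, since the array differences of the lines did not overlap in any of these calls. Over the same 5 arrays the 39 interferon effectors had a median difference of -1.13, with 37 below 0. For 35 of the effectors the sign was fixed in the same way.

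**Figure D5:**
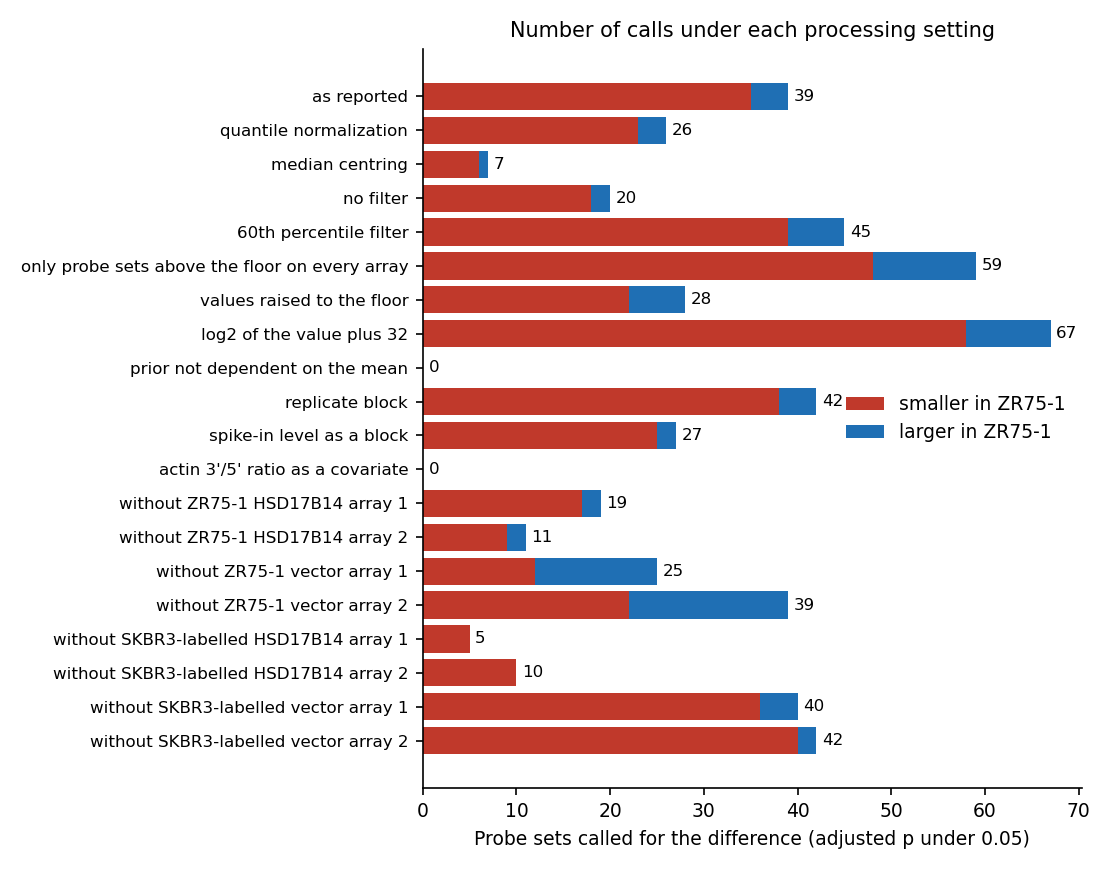
Number of probe sets called for the difference as reported and under each of 19 alternative settings (bars from 0, red for lower and blue for higher in ZR75-1). The count runs from 0, with the actin ratio as a covariate or a prior that does not depend on the mean signal, to 67 with log2 of the signal plus 32, and falls to 5 without the first SKBR3-labelled HSD17B14 array.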

How the data were processed

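The arrays were Affymetrix human arrays of total RNA. The authors deposited 1 signal intensity per probe set and array, and the submitters' processing notes name MAS5 as the tool. The mean without the top and bottom 2% of values was 100.1 on each array, and this scaling was kept. Of 8746 probe sets that are no controls, 7840 carry 1 gene symbol, 388 several and 518 none. No gene was named from several.

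Values below 1 were raised to 1 and log2 was taken. Probe sets above the array's 40th percentile on at least 2 arrays were tested. The 4 group means were fitted on all 8 arrays with limma 3.58.1 (R 4.3.3) and a mean-dependent prior, and p-values were adjusted by Benjamini-Hochberg over all 6251. The fit was also run on simulated data drawn with its own estimate of the spread, which cannot test the choice of prior. The number of arrays limits precision, with 2 per group behind every SE. Differences, fits and counts were computed here.

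A gene on a list was its probe set with the highest mean. Every called probe set with 1 symbol was named, sizes were given above the signal limit, the higher direction was filled by p-value, and HSD17B genes, hormone receptors and up to 4 members per list by moderated t were added. The members, lists and alternatives were chosen with earlier results of these data known. Alternatives concerned scaling, filter, low values, prior, replicate block, spike-in level, actin ratio and each array left out.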

Additional observations from a re-analysis of the deposited data

Results flagged for a closer look

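The plasmid's effect differed between the lines, by limma's test of the difference itself, for 39 probe sets, all given in the report. Values are differences in log2 units, ZR75-1 minus SKBR3-labelled. Interferon-induced genes stood at -2.07 (MX1), -2.03 (OAS3), -2.34 (LY6E), -2.12 (OAS1), -1.46 (UBE2L6), -2.07 (USP18), -2.44 (OAS2), -1.22 (SP110), -1.52 (OASL), -1.60 (IFI44L), -1.12 (IFITM1), -1.35 (LGALS3BP), -1.72 (BST2), -1.30 (ISG20) and -1.70 (TRIM21). Sensing, antigen presentation and further genes that rose in the SKBR3-labelled cells stood at -1.25 (RIGI), -1.33 (IRF7), -1.20 (HLA-C), -1.42 (PSMB9), -2.27 (TNFSF10) and -0.99 (SDC4). Genes that fell in ZR75-1 stood at -2.19 (EPHX1), -1.49 (IGFBP4), -1.33 (GNB2), -1.19 (MRPL49), -1.29 (PKM), -1.29 (CD81), -1.67 (ACTN4), -0.96 (TPI1) and -1.12 (S100A11), and EEF2, where neither line passed, at -1.65. The higher calls were RPL38 at 1.67, ODC1 at 1.00 and NDC80 at 1.27. Under the signal limit on some array, the adjusted p was 0.00111 for IGFBP2, 0.0108 for CSRP2, 0.0108 for S100A9, 0.0176 for MUC1 and 0.0373 for APOD.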

How the results depend on the processing

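Of 39 calls (35 lower, 4 higher in ZR75-1), 38 kept their sign under all 19 alternatives. In the fits that left out 1 array the sign could not change, since the array differences of the lines did not overlap in any call. CSRP2 turned to -0.07 with values raised to the signal limit. Leaving out 1 array gave 5 to 42 calls (lowest without the first SKBR3-labelled HSD17B14 array), 5 to 40 of them lower and 0 to 17 higher. Interferon effectors called lower, 15 as reported, were then 4 to 17, and the median of ribosomal proteins, 0.43 as reported, was 0.25 to 0.61. Without the first ZR75-1 vector array 13 were higher and 12 lower, and without the second 17 and 22.

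The total was 7 with median centring (6 lower, 1 higher, 5 effectors), 20 with no filter (18 lower, 2 higher), 59 over probe sets above the limit alone (11 higher) and 67 with log2 of the signal plus 32 (58 lower, 9 higher, effector median -0.90). Quantile normalization left 23 lower and a ribosomal median of 0.13. Raising values to the limit gave 28 calls, of which 11 were shared with the 39, with 22 lower and 7 effectors among them. A spike-in block gave 2 higher. The calls were 0 (0 lower, 0 higher, 0 effectors) with a prior not dependent on the mean, where 623 had an unadjusted p under 0.05 (815 as reported), and 0 of each with the actin covariate, where 241 did and the ribosomal median was 0.19. The causes were not tested.

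Pairing by replicate number was examined across probe sets. The first minus the second HSD17B14 array was compared with the first minus the second vector array. These differences correlated at -0.04 in ZR75-1 and -0.04 in the SKBR3-labelled cells, which gave no sign of pairing by this measure. The spike-in level did go with the replicate number. All arrays with high spike-in controls were second arrays, although the second ZR75-1 vector array was low. With the replicate block 42 probe sets were called, 38 of them shared with the 39. With 2 arrays per group and signals near background in 1 line, a missed call does not show equal effects.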

Other observations

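Further lists gave 0 calls for the difference. Of 30 chromatin remodellers, 21 were below 0, against 52.7% of all probe sets. Their median was -0.46 (-0.25 over probe sets above the signal limit), and the nucleosome remodelling subunit ARID1A differed by -1.49 (adjusted p = 0.305). Of 20 chaperones, 14 were above 0, against 47.3% of all probe sets, with a median of 0.27 (0.15 without the second ZR75-1 vector array). The chaperonins HSPD1 (0.69, 0.153) and CCT6A (0.66, 0.244) came nearest, and the small heat shock protein HSPB1 lay at -0.55 (0.328). The histone median of 0.23 turned to -0.09 without the first ZR75-1 vector array, -0.15 without the second SKBR3-labelled vector array and -0.07 with the spike-in block, with the linker histone H1-10 at -1.27 (0.122) and H1-2 at 0.56 (0.287). Of 30 genes of G1/S and replication, 19 were below 0, against 52.7% of all probe sets. Their median of -0.20 was -0.06 without the first and -0.31 without the second ZR75-1 HSD17B14 array and -0.07 after median centring.

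Stress genes lay near 0. The immediate early genes had a median of -0.06, which was 0.07 after median centring and 0.03 without the second SKBR3-labelled vector array. The ATF4 targets had a median of 0.08, which was 0.44 with the actin covariate and -0.01 without the second ZR75-1 HSD17B14 array, with ASNS at 0.71 (0.301). The metallothioneins MT1H (0.70, 0.328) and MT2A (0.56, 0.352) did not pass.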
